A study of Homo sapiens with 6 samples.

Results

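The unfolded protein response of the endoplasmic reticulum (ER) was examined through 36 genes, taken from the deposited expression table by their symbols. The genes encode the sensors of ER stress and their transcription factors, ER chaperones, disulfide isomerases and components of ER-associated degradation. A last group holds genes of protein entry and export together with STC2 and WFS1. All 36 symbols were found, once each, among the 50868 genes of the table. All 36 also reached a mean of 1 FPKM (reads scaled to gene length and library total) over the 6 samples, and so all were among the 12015 genes tested. HCT116 cells, a line from a human colorectal carcinoma, were profiled by RNA-Seq after transfection with pcYY2, a plasmid for overexpression of the transcription factor YY2, or with pcCon, the corresponding plasmid without YY2. There were 3 samples of each. Cells were collected the day after transfection, the time that the study's methods give for overexpression experiments. Whether the samples of a group were separate cultures is not given in the sources used here, so that the p-values measure the spread between these samples only.

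YY2 had an FPKM of 2.22, 2.52 and 1.73 in pcCon samples 1 to 3 and of 11.6, 11.1 and 11.01 in pcYY2 samples 1 to 3. Reads from the plasmid and from the YY2 gene cannot be told apart. Between 15158360 and 29572882 reads had been counted per sample, the most of them in pcYY2 sample 2. Of 10 epithelial markers 9 reached 1 FPKM, and the marker not reaching it was VIL1. Their summed FPKM was 329 to 343 in pcCon and 423 to 458 in pcYY2, and most of this difference lay in KRT8 (mean FPKM 62.8 and 99.1) and KRT19 (107 and 161), the 2 markers that edgeR called higher (adjusted p = 0.0117 and 0.00209). The other 7 tested markers were not called, with 5 above 0 and 2 below 0 on the log2 scale, among them CLDN7 at -0.21 with every pcYY2 sample below pcCon. The part of these markers in the results below was not tested. None of 8 leukocyte markers and 1 of 10 fibroblast and endothelial markers (COL1A1) reached 1 FPKM. The summed FPKM of the latter was 2.02 to 2.36 in pcCon and 2.29 to 2.92 in pcYY2, and COL1A2, DCN and LUM were listed at 0 in all samples. In these bulk samples, fewer cells of a kind and less RNA per cell cannot be told apart.

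The unfolded protein response lets a cell match the folding capacity of its ER to the load of secretory and membrane proteins. Unfolded proteins draw the chaperone BiP away from the sensors IRE1, PERK and ATF6 in the ER membrane. IRE1 splices the mRNA of XBP1 into one for an active transcription factor, PERK phosphorylates eIF2 and so slows translation while favoring ATF4, and ATF6 is cut in the Golgi to release a transcription factor. XBP1 and ATF6 raise the transcription of chaperones and of degradation components through short promoter elements, of which the ER stress response element (ERSE) is the best known. The counts used here are sums per gene, so that spliced and unspliced XBP1 mRNA were not separated.

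The elements are shown because they are the sequence that several of the chaperone genes have in common. The genes were chosen as members of the response that acts through these elements. Their shares below are therefore not independent of the choice, and they describe the set only. RefSeq promoters (GRCh38.p14, 250 bases before to 50 after a start) were given for 33 of the 36 genes, and those of DERL1, SEC24D and PDIA3 were not used. ERSE was searched on both strands as CCAAT and CCACG with 9 free bases between them, and 7 of the 33 genes (21.2%) held it in a promoter, against 0.0916% of all 27305 genes with a promoter in the set. The related ERSE-II, searched as ATTGG and CCACG with 1 free base between them, was found in 3 genes (9.09%), against 0.0696% of all genes. Capitals mark the fixed letters of each element, with 5 reference bases on either side.
HSPA5, ERSE, chr9:125241386-125241414, minus strand: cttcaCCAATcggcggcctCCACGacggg
HSP90B1, distal ERSE, chr12:103930211-103930239, plus strand: cctgaCCAATcggaaggagCCACGcttcg
HSP90B1, proximal ERSE, chr12:103930316-103930344, minus strand: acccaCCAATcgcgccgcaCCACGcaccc
PDIA6, ERSE, chr2:10812848-10812876, minus strand: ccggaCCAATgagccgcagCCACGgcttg
CALR, ERSE, chr19:12938379-12938407, minus strand: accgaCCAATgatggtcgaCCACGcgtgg
CANX, ERSE, chr5:179698773-179698801, plus strand: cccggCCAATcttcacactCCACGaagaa
CRELD2, ERSE, chr22:49918549-49918577, minus strand: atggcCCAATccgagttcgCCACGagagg
XBP1, ERSE, chr22:28800598-28800626, minus strand: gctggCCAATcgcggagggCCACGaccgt
HERPUD1, ERSE-II, chr16:56932020-56932040, plus strand: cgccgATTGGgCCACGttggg
HYOU1, proximal ERSE-II, chr11:119057269-119057289, plus strand: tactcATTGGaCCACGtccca
HYOU1, distal ERSE-II, chr11:119057375-119057395, plus strand: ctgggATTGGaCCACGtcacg
SDF2L1, ERSE-II, chr22:21642109-21642129, minus strand: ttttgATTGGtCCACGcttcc

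The element of HSPA5 began at -66 from the start and that of XBP1 at -52, while those of HSP90B1 began at -194 and -89. A core of the element bound by XBP1, searched as TGACGTG, lay in HYOU1, TXNDC11 and SEC61A1 (9.09%), against 2.4% of all genes, and in SEC61A1 it began at -1 (chr3:128052431-128052447, plus strand, agcacTGACGTGtctct). In HYOU1 it overlapped the distal ERSE-II. A core of the element bound by ATF4, searched as TGATGNAA, was in HERPUD1 alone (3.03%), against 4.46% of all genes. The core letters of YY1 and YY2 sites, searched as GCCATNTT, were in the promoters of OS9, HERPUD1, DERL2 and CRELD2 (12.1%), against 7.97% of all genes. A match is a description of letters and not a bound site, and its lack says only that these letters are not in this window.

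Of the 36 genes, 4 passed as higher in pcYY2 and 3 as lower, at an adjusted p of 0.05 or less (edgeR's quasi-likelihood test, Benjamini-Hochberg adjustment over all 12015 genes). ATF6 and EIF2AK3, which encode stress sensors, MANF, which encodes a secreted ER protein, and SEC61A1, which encodes the channel of the translocon, rose. XBP1, the chaperone gene HSP90B1 and STC2 fell. Among all tested genes, 4.52% were called higher and 4.85% lower, 9.37% in all, against 19.4% of the 36 genes. The 36 genes were chosen with earlier results of these data known, so that these shares are a description and not a test. FPKM values of the groups did not overlap for 16 of the 36 genes (44.4%), 9 higher and 7 lower, and for 35.8% of all tested genes. Changes are given as log2 ratios of pcYY2 over pcCon, fitted to the counts, with the standard error after ±. Their median was 0.034 over the 36 genes and 0.0020 over all tested genes, and the median size of the change was 0.13 and 0.15. The 7 called genes thus lay in both directions, with changes between 0.743-fold and 1.55-fold.

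**Figure D1:**
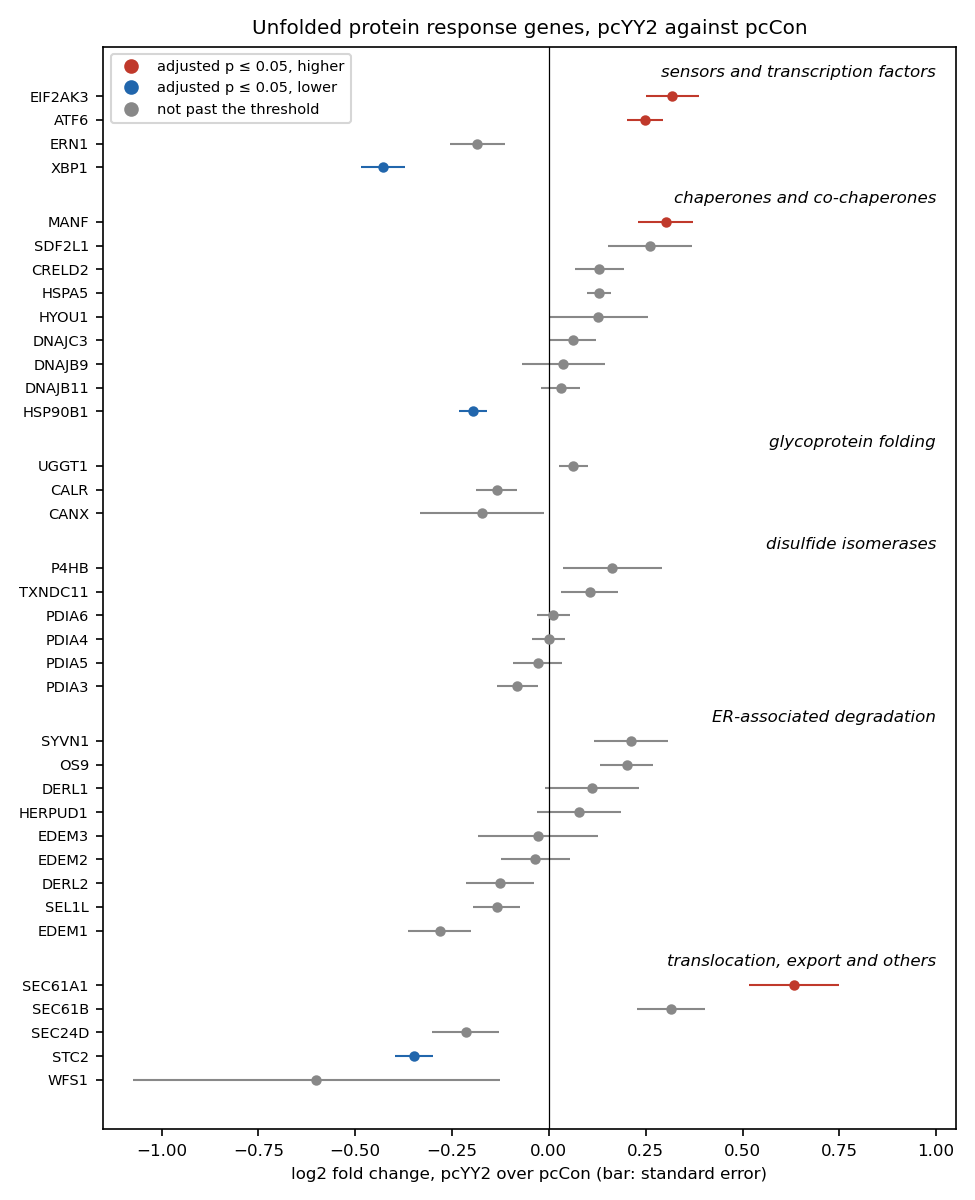
Log2 fold change of pcYY2 over pcCon for each of the 36 genes on the x axis, with its standard error as a bar, and the genes grouped by role on the y axis. Red points (4 genes) were called higher and blue points (3 genes) lower at an adjusted p of 0.05 or less, and gray points did not pass.

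Most of these calls rested on all 6 samples. With 1 sample left out in turn, 0 or 1 of the 36 genes was called higher and 1 to 3 were called lower. None was higher without pcCon sample 1, 2 or 3 or pcYY2 sample 2, and SEC61A1 alone was higher without pcYY2 sample 1 or 3. With 1 sample left out, between 12 and 14 of the 36 genes had an unadjusted p under 0.05 in edgeR. With all samples 15 had one, as did 28.9% of all tested genes. That share was not counted for the fits with a sample left out. The 7 called genes kept their direction in all 13 alternatives.

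Among the sensors and their transcription factors, 2 genes rose, 1 fell and 1 did not pass. ATF6 (ENSG00000118217, chr1:161766294-161964070, plus strand), the sensor cut in the Golgi, had an FPKM of 10.2, 10.4 and 10.6 in pcCon and of 12.6, 12.2 and 12.0 in pcYY2. Every pcYY2 sample was above every pcCon sample, a log2 ratio of 0.25 ± 0.0476 (adjusted p = 0.0269). EIF2AK3 (ENSG00000172071, chr2:88556741-88627576, minus strand), which encodes PERK, had an FPKM of 3.08, 2.99 and 3.01 in pcCon and of 3.91, 3.69 and 3.62 in pcYY2. The groups did not overlap, with a log2 ratio of 0.32 ± 0.0683 (adjusted p = 0.0356). With any 1 of the 6 samples left out the adjusted p was 0.0547 to 0.0934 for ATF6 and 0.0736 to 0.117 for EIF2AK3, so that neither passed. EIF2AK3 also did not pass with no filter on FPKM (0.0728).

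ERN1 (ENSG00000178607, chr17:64039142-64130819, minus strand), which encodes IRE1, had an FPKM of 2.61, 2.66 and 2.61 in pcCon and of 2.14, 2.34 and 2.38 in pcYY2. The pcYY2 samples lay below the pcCon samples, but the log2 ratio of -0.18 ± 0.0706 did not pass, with an adjusted p of 0.14. XBP1 (ENSG00000100219, chr22:28794555-28800597, minus strand), whose mRNA is the substrate of IRE1, had an FPKM of 6.60, 6.69 and 6.87 in pcCon and of 4.74, 5.13 and 4.95 in pcYY2. It fell to 0.743-fold, a log2 ratio of -0.43 ± 0.0559 (adjusted p = 0.00918). The lowest pcCon value was 6.60 and the highest pcYY2 value 5.13, a gap wider than the range within either group. XBP1 had the smallest p of the 36 genes, and it passed without each sample in turn (adjusted p 0.0234 to 0.0442). The mRNA of the sensors ATF6 and PERK was thus higher, and that of XBP1 lower, in the same samples.

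Of 9 chaperones and co-chaperones, MANF rose, HSP90B1 fell and 7 did not pass. HSPA5 (ENSG00000044574, chr9:125234853-125241330, minus strand) encodes BiP, the ER member of the HSP70 family and the most abundant mRNA among the 36 genes, at rank 72 by mean FPKM among all tested genes. It had an FPKM of 260.4, 265 and 266 in pcCon and of 287, 291 and 279 in pcYY2. The groups did not overlap, but the log2 ratio was 0.13 ± 0.032 with an adjusted p of 0.0508, just above the threshold. With the size factors of DESeq2 in edgeR it was 0.0485.

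HSP90B1 (ENSG00000166598, chr12:103930107-103953645, plus strand) encodes GRP94, the ER member of the HSP90 family, at rank 128. It had an FPKM of 171, 165 and 169 in pcCon and of 151, 141 and 145 in pcYY2. It fell to 0.873-fold, with a log2 ratio of -0.20 ± 0.0353 (adjusted p = 0.0232), and no value overlapped. It did not pass without pcCon sample 1, 2 or 3 or pcYY2 sample 3, with the highest adjusted p at 0.0845. Because both chaperones are measured in the same library, their ratio does not depend on scaling between samples. The FPKM of HSPA5 was 1.52, 1.60 and 1.58 times that of HSP90B1 in pcCon and 1.90, 2.06 and 1.93 times in pcYY2. The mean ratio was 1.57 ± 0.0411 (SD, n = 3) and 1.96 ± 0.0880 (SD, n = 3), and it was taken after the values were seen and not tested. The promoters of both genes hold ERSE, as shown above, and HSPA5 was higher where HSP90B1 was lower.

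MANF (ENSG00000145050, chr3:51385047-51389397, plus strand), a small ER protein that is secreted under stress, had an FPKM of 21.5, 22.96 and 19.8 in pcCon and of 24.9, 27.2 and 26.3 in pcYY2. Its log2 ratio was 0.30 ± 0.0706 (adjusted p = 0.0453), and the groups did not overlap. MANF was nearest to the threshold of the 7 called genes, and with any 1 sample left out its adjusted p was 0.0559 to 0.119. It also did not pass with upper quartile scaling (0.0548) or with lower or no filter on FPKM (0.0502 and 0.0530).

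The other chaperones did not pass. SDF2L1, a partner of ER DNAJ proteins, had a log2 ratio of 0.26 ± 0.109 (adjusted p = 0.168), from 15.3, 16.3 and 17.8 FPKM in pcCon to 17.2, 19.6 and 21.7 in pcYY2, and the groups overlapped. CRELD2, a secreted ER protein, had 0.13 ± 0.0634 with groups that did not overlap. HYOU1, the exchange factor of BiP, DNAJC3, DNAJB9 and DNAJB11, the last 3 being DNAJ co-chaperones of BiP, had log2 ratios of 0.13, 0.062, 0.037 and 0.031, each with overlapping groups. That of HYOU1 ran from 0.060 without pcYY2 sample 2 to 0.25 without pcCon sample 2. In all, 8 of the 9 genes of the group had a log2 ratio above 0, with HSP90B1 as the exception, against 6049 of all 12015 tested genes. Several of these ratios lay near 0, and that of DNAJB9 was -0.053 without pcYY2 sample 1.

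**Figure D2:**
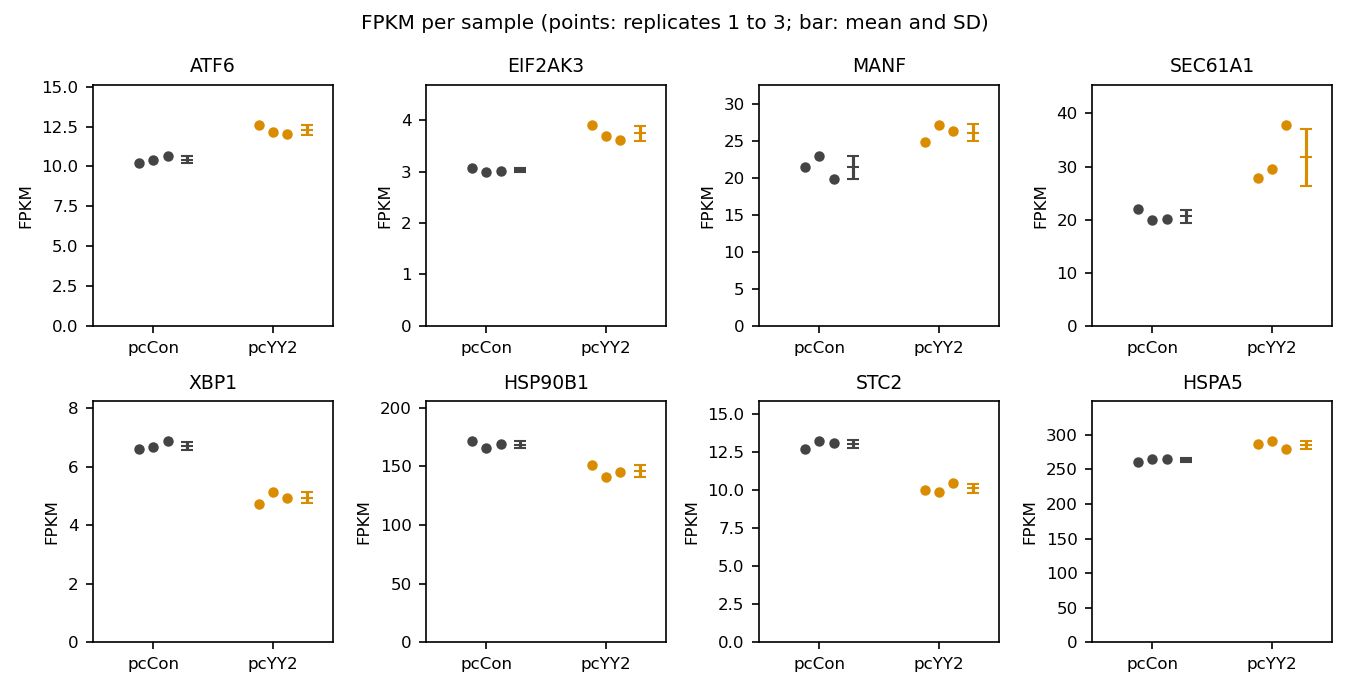
FPKM per sample on the y axis, from 0, for the 7 called genes and HSPA5, with pcCon and pcYY2 on the x axis. Points are the 3 samples of a group and the bar beside them is their mean and SD. In all 8 panels no pcYY2 point lies within the range of the pcCon points.

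The lectin chaperones and the glucosyltransferase that sort glycoproteins for folding held 3 genes, and none passed in edgeR, DESeq2 or limma, while 1 had an unadjusted p under 0.05. CALR, which encodes calreticulin, had an FPKM of 209, 185 and 205 in pcCon and of 179, 176 and 186 in pcYY2. The groups overlapped narrowly, with a log2 ratio of -0.14 ± 0.0527 (adjusted p = 0.146). CANX, which encodes its membrane-bound relative calnexin, had an FPKM of 116, 120 and 116 in pcCon and of 75.4, 114 and 119 in pcYY2. It was lowest in pcYY2 sample 1, which stood apart from the other 5 samples, and the log2 ratio was -0.17 ± 0.16 with it and 0.012 without it. UGGT1, the folding sensor that adds glucose to unfolded glycoproteins, had 15.5, 15.3 and 15.4 FPKM in pcCon and 15.9 FPKM in each pcYY2 sample. The groups did not overlap, but the step was small, with a log2 ratio of 0.063 ± 0.0376 (adjusted p = 0.316).

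Disulfide isomerases form and reshuffle disulfide bonds in the ER, and none of their 6 genes passed in edgeR, DESeq2 or limma, nor had any an unadjusted p under 0.05 in edgeR. PDIA4, the most abundant, had an FPKM of 118, 118 and 119 in pcCon and of 111, 120.0 and 120.2 in pcYY2. Its log2 ratio was -0.00074 ± 0.0436, a difference far smaller than the spread within pcYY2. PDIA6 (0.012 ± 0.0429), PDIA5 (-0.029 ± 0.0637) and PDIA3 (-0.082 ± 0.0533) also had overlapping groups. P4HB, the founding member of the family, ranged from 43.4 to 59.9 FPKM in pcCon and from 50.8 to 62.0 in pcYY2, so that its log2 ratio of 0.16 had a standard error of 0.128 and ran from 0.067 without pcCon sample 2 to 0.31 without pcCon sample 3. TXNDC11, a thioredoxin domain protein, had 0.11 ± 0.0737. All 6 groups overlapped, where 35.8% of all tested genes had groups that did not.

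ER-associated degradation returns misfolded proteins to the cytosol for the proteasome, and none of its 9 genes passed in edgeR, DESeq2 or limma, while 2 had an unadjusted p under 0.05 in edgeR. EDEM1, a lectin that extracts misfolded glycoproteins, came nearest, with an FPKM of 4.07, 4.41 and 4.06 in pcCon and of 3.55, 3.09 and 3.59 in pcYY2. Its groups did not overlap, with a log2 ratio of -0.28 ± 0.0816 (adjusted p = 0.0732). Its relatives EDEM2 and EDEM3 had -0.035 and -0.027, with standard errors of 0.0894 and 0.154. OS9, another lectin of this pathway, had 7.51, 7.04 and 7.44 FPKM in pcCon and 8.79, 7.60 and 8.66 in pcYY2, opposite in direction to EDEM1 (log2 ratio 0.20 ± 0.0677, adjusted p = 0.106). SEL1L had 10.9, 11.3 and 11.04 FPKM in pcCon and 10.8, 9.38 and 9.87 in pcYY2, with a log2 ratio of -0.13 ± 0.0607. SEL1L is the scaffold of the ubiquitin ligase SYVN1, whose own log2 ratio was 0.21 ± 0.0954 with overlapping groups.

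HERPUD1, a membrane protein of the degradation complex and a common readout of ER stress, had an FPKM of 2.55, 3.36 and 2.69 in pcCon and of 3.01, 2.92 and 3.07 in pcYY2. The pcYY2 values lay within the range of pcCon (0.078 ± 0.109). DERL1 and DERL2, which encode derlins of the retrotranslocation complex, had log2 ratios of 0.11 and -0.13 with overlapping groups, and that of DERL1 ran from 0.012 without pcYY2 sample 3 to 0.23 without pcCon sample 2. Several uncalled genes are overlapped by genes with many reads. As a share of the reads of the gene itself, THAP5 and PNPLA8 reached 430% and 178% at DNAJB9, MRPL49 and FAU 279% and 228% at SYVN1, SNN 141% at TXNDC11, MIS12 115% at DERL2 and ALG12 66.9% at CRELD2. Whether the counting used the strand is not given in the sources used here, and reads from overlapping genes on opposite strands cannot then be told apart. FAU lies on the same strand as SYVN1, so that the strand would not separate their reads in any case.

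Among genes of protein entry and export, SEC61A1 (ENSG00000058262, chr3:128051641-128071683, plus strand) rose most of the 36 genes. It encodes the pore of the channel through which nascent proteins enter the ER. Its FPKM was 22.02, 19.9 and 20.1 in pcCon and 27.8, 29.5 and 37.9 in pcYY2, a log2 ratio of 0.63 ± 0.117 (adjusted p = 0.0245). The groups did not overlap, but pcYY2 sample 3 was well above the other 2 samples, and without it the log2 ratio was 0.49. SEC61A1 did not pass without pcCon sample 1, 2 or 3 or pcYY2 sample 2 (highest adjusted p 0.0846). RUVBL1 overlaps SEC61A1 on the opposite strand, with 2914 to 5859 reads, at most 95.9% as many as SEC61A1 had. It had a log2 ratio of -0.018 (adjusted p = 0.82). As the strand setting is not given, reads of the 2 genes may not have been told apart.

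SEC61B encodes another subunit of the channel and had an FPKM of 22.99, 24.3 and 27.9 in pcCon and of 29.5, 31.4 and 31.7 in pcYY2. The groups did not overlap, and the log2 ratio of 0.32 ± 0.0883 had an adjusted p of 0.0674. SEC61G, which encodes the remaining subunit and belongs to the list for translocation below, rose from 11.4, 11.8 and 10.9 FPKM to 14.01, 14.6 and 13.3, a log2 ratio of 0.31 ± 0.0649 (adjusted p = 0.0333). All 3 subunits were therefore higher in every pcYY2 sample than in any pcCon sample, and 2 of the 3 passed. Among all tested genes, 15.9% were higher in this way and 4.52% were called higher. DESeq2 also called SEC61B (adjusted p = 0.0465), and with any 1 sample left out SEC61G did not pass.

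**Figure D3:**
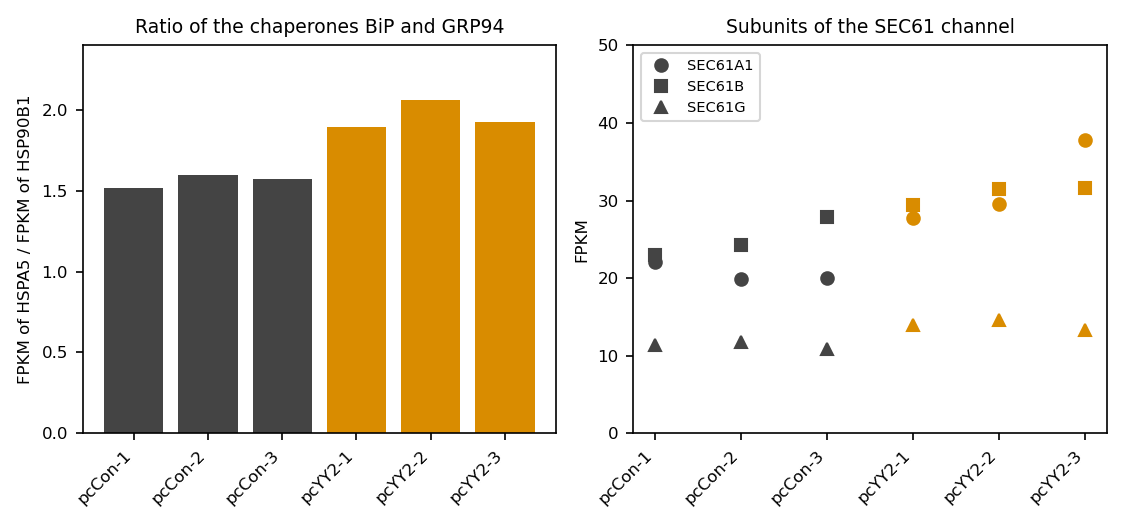
Left, the FPKM of HSPA5 divided by the FPKM of HSP90B1 in each sample, as bars from 0, with pcCon in gray (1.52 to 1.60) and pcYY2 in orange (1.90 to 2.06). Right, the FPKM of the SEC61 subunits in each sample, with circles for SEC61A1, squares for SEC61B and triangles for SEC61G, where each subunit is higher in all 3 pcYY2 samples.

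STC2 (ENSG00000113739, chr5:173314713-173329503, minus strand) encodes stanniocalcin-2, a secreted glycoprotein induced by ER stress. It had an FPKM of 12.7, 13.2 and 13.1 in pcCon and of 9.98, 9.88 and 10.5 in pcYY2. It fell to 0.785-fold, a log2 ratio of -0.35 ± 0.0496 (adjusted p = 0.0118), with a gap between 12.7 and 10.5 FPKM. Without pcCon sample 2 or 3 the adjusted p was 0.0541 and 0.0515. SEC24D, a cargo adaptor of the COPII coat that forms vesicles at the ER, had 3.38, 3.40 and 2.91 FPKM in pcCon and 2.57, 2.86 and 2.83 in pcYY2. Its groups did not overlap, but its log2 ratio of -0.21 ± 0.0866 did not pass (adjusted p = 0.157).

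WFS1, which encodes wolframin of the ER membrane, had the largest log2 ratio below 0, -0.60, but also by far the widest spread, with a standard error of 0.474. With single samples left out it ranged from -1.14 (without pcYY2 sample 1) to -0.36 (without pcYY2 sample 2). Its FPKM was 1.90, 4.84 and 5.15 in pcCon and 4.30, 1.68 and 1.87 in pcYY2. In either group the highest sample was a multiple of the lowest, 2.71 times in pcCon and 2.56 times in pcYY2, and from 281 to 721 reads lay behind the values. The samples thus fell at a lower and a higher level in both groups, and no difference between the groups could be read. For the 36 genes the median of this ratio was 1.09 in pcCon and 1.10 in pcYY2, against 1.13 and 1.15 over all tested genes. It exceeded 1.5 only for WFS1 in pcCon, and for WFS1 and CANX in pcYY2.

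**Figure D4:**
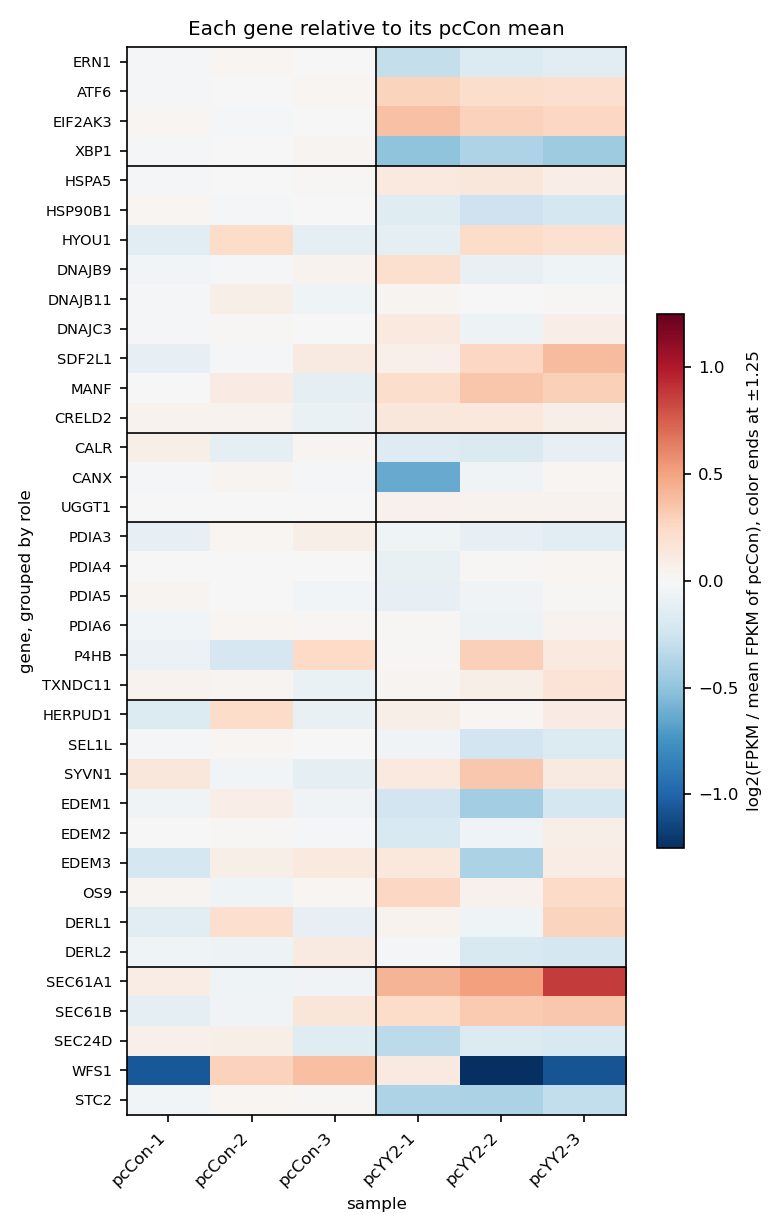
Color map of log2(FPKM / mean FPKM of pcCon) for the 36 genes (rows, grouped by role and separated by lines) in the 6 samples (columns), red for higher and blue for lower. The rows of ATF6, EIF2AK3, MANF and SEC61A1 are red and those of XBP1, HSP90B1 and STC2 blue in all 3 pcYY2 samples, and WFS1 and CANX show the single samples that stand apart.

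As a whole the 36 genes took up a like share of the mRNA in both groups. Their summed FPKM was 1305, 1303 and 1335 in pcCon and 1264, 1312 and 1331 in pcYY2. This was 0.521% ± 0.0049 (SD, n = 3) of all FPKM in pcCon and 0.515% ± 0.013 (SD, n = 3) in pcYY2. The highly expressed HSPA5, HSP90B1, CALR, CANX and PDIA4 made up between 63.6% and 67.0% of the sum, so that it mostly reads these 5 genes. The sum of both groups overlapped, while within it HSPA5 was higher and HSP90B1 lower in every pcYY2 sample.

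Of the 7 genes with ERSE in the promoter, none was called higher and 2 were called lower, XBP1 and HSP90B1. Their log2 ratios ran from -0.43 (XBP1) to 0.13 (CRELD2), 3 above 0 and 4 below 0, with a median of -0.14. The 3 genes with ERSE-II, HERPUD1, HYOU1 and SDF2L1, had 0.078, 0.13 and 0.26 and none passed. Outside the 36 genes, ERSE was held by 18 genes of the promoter set, of which 5 were tested, with 1 called higher (TRIM5, 0.58 ± 0.119, adjusted p = 0.0322) and 0 lower. ERSE-II was held by 16 other genes, of which 10 were tested, with 1 called higher and 1 lower. Of all tested genes, 4.52% were called higher and 4.85% lower. None of the 4 genes with the core letters of YY1 and YY2 sites was among the 7 called genes. The share called was 19.4% of the 36 genes and 9.37% of all tested genes, so that 4 genes are too few to read this count. OS9 and CRELD2 were higher in pcYY2 with groups that did not overlap, while those of HERPUD1 and DERL2 overlapped.

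Other genes of the secretory pathway were examined with 7 lists written from general knowledge, but with earlier results of these data known. Of their 136 tested genes, edgeR called 8 higher and 5 lower, 9.56% in all against 9.37% of all tested genes, and the median log2 ratio was 0.021. With 1 sample left out in turn, between 1 and 8 of the 136 were called. The list for PERK and its target ATF4 held the largest changes. Of its 13 tested genes edgeR called 4 lower and 0 higher, with a median log2 ratio of -0.14. ASNS, asparagine synthetase and a target of ATF4, had an FPKM of 26.9, 28.4 and 25.0 in pcCon and of 8.24, 8.31 and 7.33 in pcYY2 (log2 ratio -1.73, adjusted p = 0.000221). CEBPB, a transcription factor, fell by 0.36 on the log2 scale (adjusted p = 0.0215), and DDIT4, an inhibitor of mTORC1 signaling, fell by 0.44 (adjusted p = 0.0239). PPP1R15B, a subunit of the phosphatase that reverses the action of PERK on eIF2, fell by 0.20 (adjusted p = 0.0321). Of the 4 called genes, ASNS alone was lower at this threshold in each of the 14 fits. Of the 13 tested genes, 4 had a log2 ratio above 0 and 9 below 0. The groups did not overlap for 7 of the 13 (53.8%), 1 higher and 6 lower, against 35.8% of all tested genes. The 1 higher was PPP1R15A, another such subunit, at 0.28 (adjusted p = 0.0816). Among those lower but not called were CHAC1, at -1.10 from 72 to 171 reads (adjusted p = 0.0783), and ATF4, at -0.14 (adjusted p = 0.125). TRIB3 at -0.38 and DDIT3 at -0.14 had overlapping groups and were not called. In this arm EIF2AK3 itself, the sensor, rose, as given above.

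Among 22 tested genes for signal peptides and translocation, SEC61G and SRPRB rose, the latter a receptor subunit of the signal recognition particle (0.26, adjusted p = 0.0448), and none fell. Of 22 genes for the COPII coat and export, 3 rose and 0 fell. TMED9, a cargo receptor, rose from 18.4, 19.8 and 18.0 FPKM to 23.01, 24.5 and 25.9 (log2 ratio 0.40, adjusted p = 0.0176). SAR1B, the GTPase of the coat, and KDELR1, which returns ER proteins from the Golgi, rose by 0.28 (adjusted p = 0.0461) and 0.18 (adjusted p = 0.0453). The median of this list was -0.00058, so that the called genes did not stand for the list. In the N-glycosylation list of 24 genes, ALG1 rose (0.43, adjusted p = 0.0435) and OSTC, a subunit of oligosaccharyltransferase, fell from 23.1, 24.8 and 24.0 FPKM to 16.3, 13.96 and 19.1 (-0.53, adjusted p = 0.033).

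Of 22 other genes of ER-associated degradation, NPLOC4, a cofactor of the segregase VCP, alone was called by edgeR, at 0.28 (adjusted p = 0.0145), and limma called 2 genes of this list. Of 19 other sensors, regulators and relatives of the 36 genes, CREB3, a transcription factor cut in the Golgi like ATF6, alone was called by edgeR, at 0.41 (adjusted p = 0.0466), and DESeq2 called 2 genes of this list. Among 14 other enzymes of disulfide and redox folding none was called by edgeR, 2 had an unadjusted p under 0.05 and DESeq2 called 1. With any 1 sample left out PPP1R15B, SRPRB, SAR1B, ALG1 and CREB3 did not pass.

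**Figure D5:**
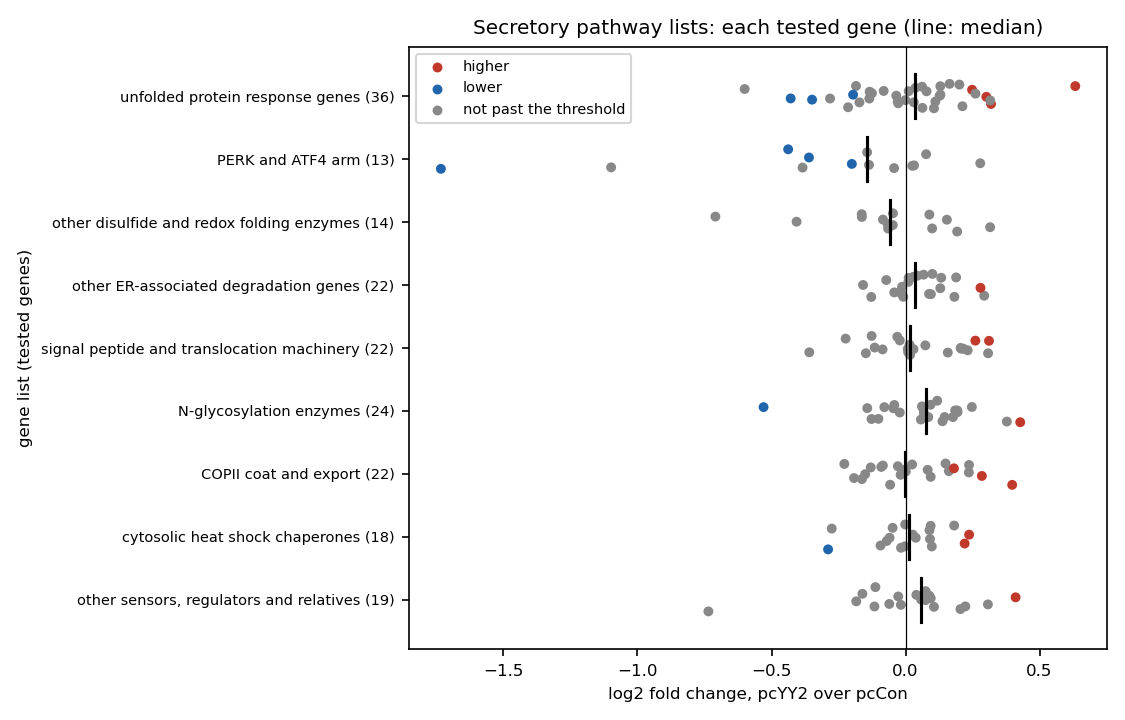
Log2 fold change of pcYY2 over pcCon on the x axis for each tested gene of the 36 and of 8 further lists on the y axis, with the number of tested genes in brackets and the median as a black line. Red points were called higher and blue points lower. The PERK and ATF4 list reaches furthest to the left, with ASNS at -1.73, and its 4 called genes are all lower.

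Genes overlapping the 7 called genes had few reads, except RUVBL1 at SEC61A1. At HSP90B1, C12orf73 held at most 0.869% and TTC41P at most 0.228% as many reads as the gene itself, and at EIF2AK3 the overlapping AC062029.1 held at most 6.82%. ATF6 had 1 overlapping gene, with 0 to 2 reads. No counted gene of the table overlapped XBP1, STC2 or MANF. For the called genes, 352 reads or more lay behind every value of EIF2AK3, the gene with the fewest.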

How the data were processed

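The data comprise RNA-Seq of HCT116 cells with pcCon or pcYY2. Reads had been filtered, aligned by Tophat on GRCh38 and turned into FPKM by Cufflinks, as the study's methods state. The submitters' processing notes name Bowtie2, HTSeq and TopHat. The authors deposited raw counts, whole numbers of reads per gene and sample, and FPKM, scaled to gene length and library total. The annotation release and strand setting are not given in the sources used here. No column of values was without a sample.

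Genes whose FPKM averaged 1 or more over the 6 samples were tested on the counts (edgeR 4.0.16, R 4.3.3, TMM factors, quasi-likelihood F test, no covariate), and Benjamini-Hochberg adjusted p of 0.05 or less was the threshold, the level in the methods. The standard error of a log2 ratio was its size over the root of its F. A floor of 3 counts is 0.101 to 0.198 CPM and covers counting error only. With 3 samples against 3, an exact permutation test cannot give p below 0.1.

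The 36 genes and the lists were chosen with earlier results of these data known. Every one of the 36 is accounted for, with each sample's value for called genes, sensors and the highest-level gene of each role, and from other lists at most 4 called genes with the smallest p are named. Values per sample of the remaining uncalled genes, and TRIM5, MRPL49, PPP1R15A, CHAC1, ATF4, TRIB3, DDIT3 and the HSPA5 to HSP90B1 ratio, were picked after their values were seen. Alternatives were other scalings and filters, a replicate block, leaving out each sample, DESeq2 1.42.0 and limma 3.58.1 with trend on log2(FPKM + 1). Those for the other lists were added after seeing the data. Tests were tried on simulated counts. Coordinates are those of the table, and strands come from GENCODE 44, which places all 36 genes at the same loci. Python 3.11.15 was used for tables and plots.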

Additional observations from a re-analysis of the deposited data

How the results depend on the processing

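With the replicate number as a block in edgeR, 51 genes of all tested were higher and 50 lower in pcYY2. Of the 36 genes 0 were higher and 0 lower, while 13 had an unadjusted p under 0.05. The share of all tested genes with such a p was not counted in this fit. Samples with the same number did not deviate together (mean correlation -0.026 across genes, 0.013 for the other pairs), and 0 of 6 samples correlated best with its own number. With 3 samples in a group, this check cannot exclude that the numbers pair the samples. In the fit with the block the adjusted p of the 7 called genes was between 0.0566 (XBP1) and 0.104 (EIF2AK3). With no filter on FPKM, 2 of the 36 genes were higher. Leaving out single samples gave between 138 and 412 higher and between 147 and 393 lower genes, and of the 36 genes between 0 and 1 were higher and between 1 and 3 lower.

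Over 13 alternatives for each of the 36 genes, 410 of 468 values kept direction and side of the threshold, 39 no longer passed, 2 newly passed (HSPA5 and SEC61B) and 17 changed sign, these in 8 genes that were never called. PDIA4 had 0.022 with the filter at 0.1 FPKM, 0.014 with none and 0.00013 with DESeq2, and PDIA6 had -0.0066 with upper quartile scaling and -0.0026 with limma. Without single samples, the log2 ratio ranged from -0.053 to 0.091 for DNAJB9, -0.29 to 0.012 for CANX, -0.022 to 0.039 for PDIA4, -0.057 to 0.0056 for PDIA5, -0.010 to 0.037 for PDIA6, -0.0030 to 0.21 for HERPUD1, -0.096 to 0.032 for EDEM2 and -0.13 to 0.12 for EDEM3. The cause of these shifts was not tested.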

Other observations

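Cytosolic heat shock chaperones, which fold proteins outside the ER, were measured as a list of 18 tested genes, of which 2 were higher and 1 was lower in pcYY2, with a median log2 ratio of 0.013. AHSA1, an activator of HSP90, rose from 35.7, 37.2 and 37.1 FPKM in pcCon to 42.7, 43.2 and 42.5 in pcYY2, a log2 ratio of 0.24 (adjusted p = 0.0200). HSPB1, a small heat shock protein, rose from 88.2, 85.6 and 84.4 FPKM to 95.1, 102 and 100.4 (0.22, adjusted p = 0.0366). HSPA4L, a relative of HSP70, fell from 6.11, 6.06 and 5.48 FPKM to 5.12, 4.61 and 4.59 (-0.29, adjusted p = 0.0473). Leaving out single samples gave between 0 and 3 calls in this list, with none without pcCon sample 1, 2 or 3 or pcYY2 sample 3.

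MRPL49, a gene for a mitochondrial ribosomal protein that overlaps SYVN1, had 2537, 951 and 869 reads in pcCon samples 1 to 3 and 2507, 1290 and 1643 in pcYY2 samples 1 to 3, while SYVN1 itself had 749 to 2013 reads. Like WFS1, MRPL49 varied more within the groups than between them (log2 ratio 0.26, adjusted p = 0.792).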
